A study of Mus musculus with 10 samples.

Results

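Inhibitory and related immunoglobulin-type receptors of myeloid cells were followed through RNA sequencing counts of sorted mouse retinal cells. The members were the 9 rows of the count table whose symbol was Lilrb4a, Pirb, Lair1, Sirpa, Cd200r1, Siglec1, Siglece, Cd33 or Cd22, out of 21869 genes, and they were chosen by name. All 9 passed the filter on low counts and were among the 11596 genes tested. Cells had been taken from dissociated retina by flow cytometry as live, CD11b-positive and intermediate for CD45, a gate that the labels call microglia, the resident macrophages of the retina. Surface CD36, a scavenger receptor for lipids, then divided them. The CD36-positive cells gave 5 libraries with the numbers 1, 2, 3, 4 and 7, and the CD36-negative cells 5 libraries with the numbers 1, 2, 4, 7 and 8. The titles call both groups WT. The protocol gave mice 20 mg/kg of intravenous sodium iodate, which kills cells of the retinal pigment epithelium, or buffered saline, with eyes taken 7 days later. The labels do not tie either treatment to these 10 libraries and give no strain, age, sex or pooling of mice. Nothing says that libraries of a group came from separate mice, so the p-values measure the spread between these libraries.

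These receptors bind ligands on neighbouring cells or matrix and restrain phagocytosis, degranulation and cytokine release. In most of them the cytoplasmic tail carries immunoreceptor tyrosine-based inhibitory motifs (ITIMs). Src-family kinases such as Lyn phosphorylate the motif, which then recruits the phosphatases SHP-1, SHP-2 or SHIP1 and so opposes signals sent through the activating adaptors DAP12 and the Fc receptor gamma chain. Siglec1 and Cd200r1 are among those that differ in this respect: sialoadhesin, the product of Siglec1, has no ITIM, and the CD200 receptor signals through the adaptors Dok1 and Dok2. In the central nervous system, microglia are known to be held in check by CD47 acting on SIRPα, by CD200 acting on its receptor and by sialic acids acting on Siglecs.

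Lair1 and Pirb lie in the same receptor cluster on mouse chromosome 7 and moved in opposite directions, so their promoters are shown. RefSeq promoter sequences (GRCm38.p6) were matched for 5 of the 9 members. The windows run from 250 bases before to 50 bases after the gene start, on the minus strand, at chr7:3720333-3720632 for Pirb and chr7:4063155-4063454 for Lair1. Capitals mark matches, on either strand, to the ETS-type core GAGGAA read by the myeloid factor PU.1 (TTCCTC on the other strand) and to the C/EBP-type pattern TTGCNNAA.
Pirb: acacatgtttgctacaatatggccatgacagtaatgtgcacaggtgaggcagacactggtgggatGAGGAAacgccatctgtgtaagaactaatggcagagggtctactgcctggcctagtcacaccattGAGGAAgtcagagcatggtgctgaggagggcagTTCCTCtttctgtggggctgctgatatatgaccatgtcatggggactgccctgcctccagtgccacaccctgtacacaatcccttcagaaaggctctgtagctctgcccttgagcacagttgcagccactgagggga
Lair1: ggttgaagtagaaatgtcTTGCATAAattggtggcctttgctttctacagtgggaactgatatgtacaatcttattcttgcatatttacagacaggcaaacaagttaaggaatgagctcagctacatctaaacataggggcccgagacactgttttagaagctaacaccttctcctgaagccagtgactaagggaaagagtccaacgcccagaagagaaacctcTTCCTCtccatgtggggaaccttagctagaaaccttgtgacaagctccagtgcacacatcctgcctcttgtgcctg
The Pirb window held 3 matches to GAGGAA, starting 185, 120 and 87 bases before the gene start. The Lair1 window held 1 such match, 26 bases before the start, and 1 match to TTGCNNAA, 232 bases before it. Matches in these 2 windows did not overlap one another. Neither window held the interferon-type repeat (GAAA, any 2 bases, GAAA). Of 32851 promoter windows of this length, 28.3% held GAGGAA, 10.8% held TTGCNNAA and 3.44% held the interferon-type repeat. The Siglece window held 3 matches to GAGGAA. The RefSeq windows of Cd33 and Cd22 lie inside the genes as the GENCODE annotation places them and are not described. A match of letters is a description and not a bound site.

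Total counts per library ran from 5001692 to 13250984. CD36-positive libraries 1 and 3 were the shallowest, at 5001692 and 6904523, and lay farthest out on a principal component of log2 CPM each, library 1 on the second (15.9% of the variance) and library 3 on the third (12.3%). CPM below are counts scaled to a library size set by TMM (trimmed mean of M-values), per 1e+06 counts. The sort gene Cd36 spanned 170 to 255 CPM over CD36-positive libraries, against 41.8 to 55.3 CPM over CD36-negative ones, a log2 fold change of 2.12. All 14 microglia markers were tested. By edgeR 0 passed, beside 1 higher and 2 lower at an unadjusted p under 0.05, and by DESeq2 and limma voom 0 passed. Their summed level was 9484 to 20760 CPM over CD36-positive libraries, against 9065 to 22304 CPM over CD36-negative ones.

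In CD36-positive cells 3 of the 9 receptor genes rose (Lilrb4a, Lair1 and Siglec1), 1 fell (Pirb) and 5 did not pass (Sirpa, Cd200r1, Siglece, Cd33 and Cd22), by edgeR's quasi-likelihood test at an adjusted p under 0.05. Over all 11596 genes tested, 2.61% rose and 4.74% fell. The median log2 fold change of the 9 genes was -0.05, beside 0.02 for all genes tested. Lilrb4a and Lair1 lay above the CD36-negative range in every CD36-positive library, and Pirb and Cd200r1 below it. Over all genes tested, 2.59% had groups that did not overlap with CD36-positive cells above, and 5.83% with CD36-positive cells below. In bulk libraries, fewer cells that express a gene and less RNA of that gene per cell cannot be told apart.

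**Figure D1:**
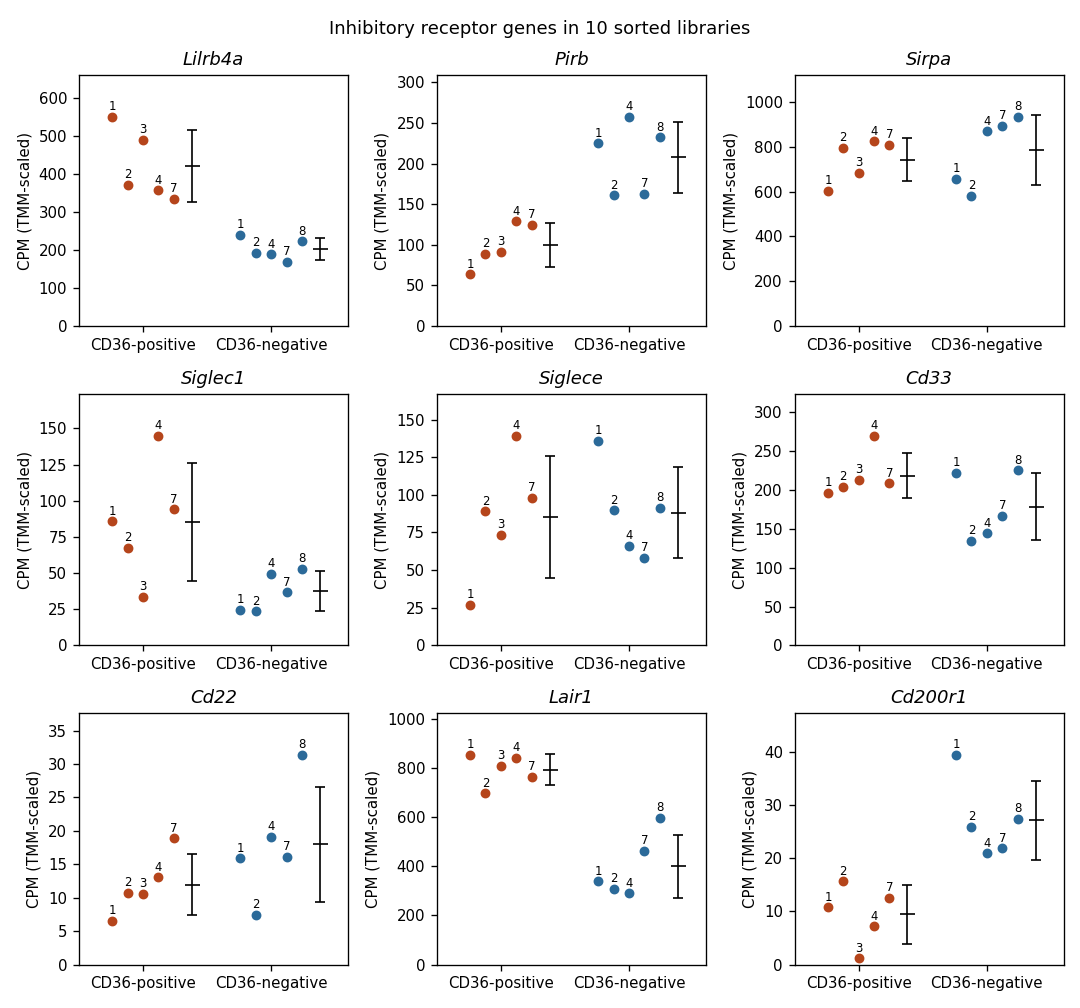
CPM (TMM-scaled, vertical axis) of the 9 receptor genes in each library, with CD36-positive on the left and CD36-negative on the right of each panel. Points are libraries labelled with their replicate number, and bars are mean and SD of 5; Lilrb4a and Lair1 lie wholly above and Pirb and Cd200r1 wholly below the CD36-negative libraries.

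Markers of other leukocytes moved with the groups. Dendritic cell markers fell in 17 of 18 tested genes, and their summed level was 59.0 to 148 CPM over CD36-positive libraries, against 1104 to 1864 CPM over CD36-negative ones. Neutrophil markers fell in 8 of 10 (93.8 to 195 CPM in CD36-positive libraries, 330 to 876 CPM in CD36-negative ones). Monocyte markers fell in 9 of 16 and rose in 1 (996 to 1467 CPM in CD36-positive libraries, 1642 to 2653 CPM in CD36-negative ones). T and NK cell markers fell in 8 of 11 (7.82 to 24.5 CPM in CD36-positive libraries, 155 to 512 CPM in CD36-negative ones). Mast cell, eosinophil and basophil markers fell in 2 of 4, Kit and Siglecf (12.8 to 26.9 CPM in CD36-positive libraries, 80.7 to 168 CPM in CD36-negative ones). Most of that sum was Kit and Siglecf, which averaged 1.31 and 12.4 CPM in CD36-positive libraries and 58.2 and 56.8 CPM in CD36-negative ones. Kit is also counted among the dendritic cell markers. The neutrophil genes Retnlg and G0s2 and the T and NK cell gene Prf1 had no count in any CD36-positive library, against 4123, 397 and 231 counts in the CD36-negative libraries together. Ly6g, Ngp, Mpo, Cpa3, Prg2 and Ear1 also had none in CD36-positive libraries, but only 3.04 to 37 counts in the CD36-negative libraries together, and Elane, Mcpt4 and Epx had none in either group. Plasmacytoid dendritic cell markers, which share Siglech with microglia, rose in 1 of 7 (Bst2) and fell in 2 (Spib and Pacsin1). Their summed level was 913 to 1456 CPM in CD36-positive libraries and 642 to 867 CPM in CD36-negative ones. Most of it was Bst2 and Siglech, which averaged 793 and 268 CPM in CD36-positive libraries, against 405 and 222 CPM in CD36-negative ones. Macrophage markers of vessels and borders rose in 3 of 9 and fell in 1 (1335 to 1623 CPM in CD36-positive libraries, 601 to 1326 CPM in CD36-negative ones). Photoreceptor markers fell in 2 of 11 (116 to 1005 CPM in CD36-positive libraries, 403 to 2537 CPM in CD36-negative ones). Their median log2 fold change was -1.62, and by edgeR at an unadjusted p under 0.05, 0 rose and 7 fell. PIR-B, PIR-A, CD200R1, Siglec-F, Siglec-G, SIRPβ1 and BTLA are also made by dendritic cells, monocytes, granulocytes or lymphocytes, and sialoadhesin by border macrophages. The gate on CD11b and on intermediate CD45 is meant to leave out lymphocytes and other cells high in CD45. The part of these cell types in the levels of the receptors was not tested.

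Lilrb4a (ENSMUSG00000112148.1, chromosome 10 from 51490956 to 51496611 on GRCm38, plus strand) encodes gp49B, an ITIM receptor of the LILR family on mouse myeloid cells. It was at 550, 371, 489, 357 and 334 CPM in CD36-positive libraries 1, 2, 3, 4 and 7, against 239, 192, 188, 169 and 223 CPM in CD36-negative libraries 1, 2, 4, 7 and 8. The lowest CD36-positive library stood well above the highest CD36-negative one, and libraries 1 and 3, the shallowest, were the highest. The log2 fold change was 1.06 (SE 0.18, 95% interval 0.67 to 1.44, edgeR adjusted p = 0.00132), and it ran from 0.92 to 1.12 with each library left out. Its neighbour Lilr4b, 4253 bases away, is a close copy that lacks ITIMs. It averaged 55.6 ± 15.1 CPM over CD36-positive libraries, against 39.9 ± 12.5 CPM over CD36-negative ones (SD, n = 5 each). Its log2 fold change of 0.48 (interval -0.06 to 1.02) did not pass (edgeR adjusted p = 0.302).

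Of the distinct 50-base words in the annotated transcripts of Lilrb4a, 46.7% also occurred in transcripts of other genes, 33.7% in those of Gm49339, which was not analysed here, and 26.1% in those of Lilr4b. The deposited count of Lilrb4a was not a whole number in any of the 10 libraries, so the split of shared reads between the copies is uncertain. Counted together, which leaves out Gm49339, Lilrb4a and Lilr4b spanned 380 to 619 CPM over CD36-positive libraries, against 200 to 293 CPM over CD36-negative ones (log2 fold change 0.97, SE 0.18, edgeR adjusted p = 0.00264).

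Pirb (ENSMUSG00000058818.13, chromosome 7 from 3711409 to 3720391 on GRCm38, minus strand) encodes paired immunoglobulin-like receptor B, an ITIM receptor for MHC class I that in mouse neurons also binds the myelin inhibitor Nogo. It was at 63.6, 88.5, 91.4, 129 and 124 CPM in CD36-positive libraries 1, 2, 3, 4 and 7, against 225, 161, 258, 163 and 232 CPM in CD36-negative libraries 1, 2, 4, 7 and 8. Every CD36-positive library lay below every CD36-negative one. The log2 fold change was -1.06 (SE 0.22, interval -1.52 to -0.61, edgeR adjusted p = 0.00486) and ran from -1.18 to -0.95 with each library left out.

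Of 3 tested genes with a Pira symbol, which encode activating partners of PIR-B, Pira2 fell and Pira1 and Pira6 did not pass. Pira2, 116 kb from Pirb, encodes a PIR-A receptor that signals through the Fc receptor gamma chain. It was at 1.74 to 6.55 CPM over CD36-positive libraries, against 18.4 to 54.4 CPM over CD36-negative ones (log2 fold change -2.94, SE 0.41, edgeR adjusted p = 0.000172). Lilra6 (-2.89, edgeR adjusted p = 0.0497), Gm14548 (-3.87, 0.00224) and Gm15448 (-4.18, 0.0384) also fell, and none of these exceeded 18.2 CPM in any library. Pira1 (-1.21, interval -2.60 to 0.17) and Pira6 (-0.86, interval -2.27 to 0.55) did not pass. The groups did not overlap for Pira1, at 0 to 10.9 CPM over CD36-positive libraries and 11.4 to 13.3 CPM over CD36-negative ones. For Pira6 they overlapped. Beyond them in the cluster Lair1 and, 517 kb from Pirb, Lilra5, an activating receptor in human cells, rose. Lilra5 was at 88.9, 75.2, 89.4, 98.7 and 110 CPM in CD36-positive libraries and 33.2, 27.0, 36.6, 27.0 and 34.0 CPM in CD36-negative ones (log2 fold change 1.55, SE 0.19, edgeR adjusted p = 4.39e-05). Pira2, Lilra5, Lilra6, Gm14548, Gm15448, Pira1 and Pira6 were chosen for mention after their values were seen.

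**Figure D2:**
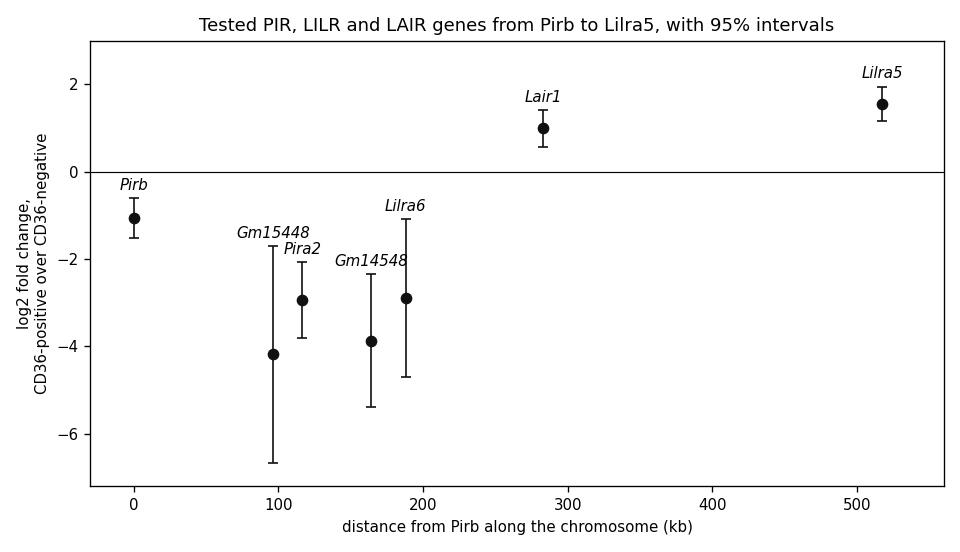
Log2 fold change (CD36-positive over CD36-negative, vertical axis, with 95% intervals) of 7 tested PIR, LILR and LAIR genes that the annotation places in this stretch, against distance from Pirb in kb (horizontal axis). Pira1 and Pira6, which did not pass, were not placed and are not drawn. The 5 genes from Pirb to Lilra6 lie below 0, while Lair1 and Lilra5, at 283 and 517 kb, lie above it.

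Transcripts of the PIR genes share sequence. For Pirb, 34.0% of distinct 50-base words occurred in other genes, among them 17.7% in Gm14548, 16.8% in Pira2, 15.0% in Lilra6 and 11.96% in Gm15448. Gm15922 (13.2%), Gm15925 (12.2%), Gm15931 (10.8%), Gm10693 (7.40%) and Gm15930 (7.36%) also share words but were not analysed here. Its deposited count was not whole in 9 of 10 libraries. Counted together with Gm14548, Pira2, Lilra6 and Gm15448, Pirb spanned 69.4 to 138 CPM over CD36-positive libraries, against 196 to 313 CPM over CD36-negative ones (log2 fold change -1.32, SE 0.22, edgeR adjusted p = 0.000757). Pira1 and Pira6 were not part of this sum. The other 7 members shared at most 1.33% of their words with another gene.

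Lair1 (ENSMUSG00000055541.17, chromosome 7 from 4003402 to 4063204, minus strand) encodes an ITIM receptor for collagens and for the complement protein C1q. It was at 853, 698, 811, 842 and 765 CPM in CD36-positive libraries 1, 2, 3, 4 and 7, against 339, 309, 290, 464 and 596 CPM in CD36-negative libraries 1, 2, 4, 7 and 8. The CD36-positive libraries were close together, with a coefficient of variation of 8.02%, whereas the CD36-negative ones spread over 32.3%, with library 8 nearest to the CD36-positive range. The log2 fold change was 0.99 (SE 0.20, interval 0.56 to 1.41, edgeR adjusted p = 0.00494) and ran from 0.87 to 1.18 with each library left out.

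Sirpa (chromosome 2 from 129592835 to 129632228, plus strand) encodes SIRPα, the ITIM receptor through which CD47 on a target cell blocks its engulfment. It was at 603, 796, 684, 824 and 809 CPM in CD36-positive libraries 1, 2, 3, 4 and 7, against 657, 582, 868, 893 and 934 CPM in CD36-negative libraries 1, 2, 4, 7 and 8. The groups overlapped throughout. The log2 fold change was -0.08, with an interval of -0.46 to 0.29 (edgeR adjusted p = 0.839). Its activating relative Sirpb1a, which pairs with DAP12, was at 6.98 to 19.9 CPM over CD36-positive libraries, against 43.6 to 89.7 CPM over CD36-negative ones, with no overlap (log2 fold change -1.95, SE 0.29, edgeR adjusted p = 0.000346). Sirpb1b, another relative, did not pass, with a log2 fold change of -0.06 (interval -0.77 to 0.66). Sirpb1a and Sirpb1b were chosen with their values known.

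Cd200r1 (chromosome 16 from 44765736 to 44794978, plus strand) encodes the receptor for CD200, a protein of neurons and endothelium that quiets microglia. It was at 10.8, 15.7, 1.15, 7.21 and 12.5 CPM in CD36-positive libraries 1, 2, 3, 4 and 7, against 39.5, 25.9, 21.0, 21.9 and 27.5 CPM in CD36-negative libraries 1, 2, 4, 7 and 8. The groups did not overlap, and CD36-positive library 3 held only 8 counts. The log2 fold change was -1.51 (SE 0.45, interval -2.47 to -0.56), and the gene stood just outside the threshold (edgeR adjusted p = 0.0518). Over the alternatives the adjusted p ran from 0.0111 to 0.131; it passed in 9 of 21, among them edgeR without CD36-positive library 2 (-1.78, adjusted p = 0.0361) or 3 (-1.23, adjusted p = 0.0257).

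**Figure D3:**
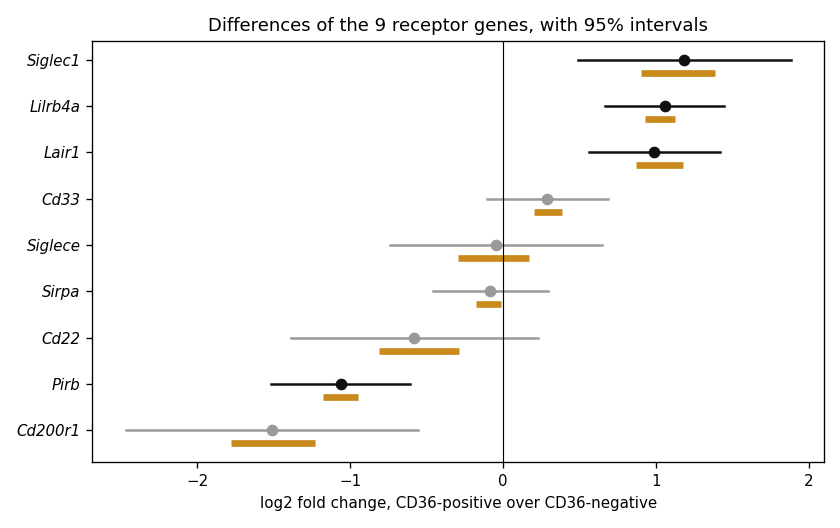
Log2 fold change (CD36-positive over CD36-negative, horizontal axis) of the 9 receptor genes. Points with thin lines are estimates with 95% intervals, black where the adjusted p was under 0.05 and grey otherwise; the thick bar under each shows the range over 10 fits that each left out 1 library, and only that of Siglece crosses 0.

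Among the sialic-acid-binding lectins, Siglec1 rose and Siglece, Cd33 and Cd22 did not pass. Siglec1 (chromosome 2 from 131069220 to 131086765, minus strand) encodes sialoadhesin or CD169, an adhesion receptor of macrophages whose gene is induced by type I interferon. It was at 85.8, 67.6, 33.5, 145 and 94.1 CPM in CD36-positive libraries 1, 2, 3, 4 and 7, against 24.7, 23.6, 49.6, 36.6 and 52.9 CPM in CD36-negative libraries 1, 2, 4, 7 and 8. CD36-positive libraries 1, 2, 4 and 7 lay above all CD36-negative libraries and library 3 among them. The log2 fold change was 1.18 (SE 0.33, interval 0.49 to 1.88, edgeR adjusted p = 0.0359). Leaving out library 1, 4 or 7 of the CD36-positive group, or 1, 2, 4 or 7 of the CD36-negative group, ended this call (log2 fold change 0.90 to 1.29, adjusted p = 0.0548 to 0.0959).

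In both groups Siglec1 was lower in the libraries that were high in Y-linked RNA, and so were Sirpa and Cd22 of the 9 receptor genes. The share of all genes tested that divided the libraries in this way was not counted, so nothing particular to these genes follows. CD36-positive libraries 1, 2 and 3 summed to 207 to 324 CPM of Y-linked genes and held 33.5 to 85.8 CPM of Siglec1, while libraries 4 and 7 had 18.4 to 19.7 CPM of Y-linked genes and 94.1 to 145 CPM of Siglec1. CD36-negative libraries 1 and 2 summed to 184 to 206 CPM of Y-linked genes and held 23.6 to 24.7 CPM of Siglec1, and libraries 4, 7 and 8 had 23.7 to 57.6 CPM of Y-linked genes and 36.6 to 52.9 CPM of Siglec1. The summed level of the microglia markers divided the libraries in the same way: it was 9484 to 14429.5 CPM in CD36-positive libraries 1, 2 and 3 and 19843 to 20759.8 CPM in libraries 4 and 7, and 9065 to 10421.5 CPM in CD36-negative libraries 1 and 2 and 14423 to 22304 CPM in libraries 4, 7 and 8. The part of the microglia marker level in these 3 genes was not tested. In a fit that included the Y-linked level, added after the data were seen, the log2 fold change of Siglec1 was 1.26 (edgeR adjusted p = 0.00237), and Sirpa (-0.03) and Cd22 (-0.46) did not pass.

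Siglece (chromosome 7 from 43651070 to 43660161, minus strand) encodes an ITIM Siglec of mouse microglia, monocytes and neutrophils. It was at 26.8, 89.1, 73.5, 139 and 98.2 CPM in CD36-positive libraries 1, 2, 3, 4 and 7, against 136, 89.7, 66.2, 58.0 and 91.3 CPM in CD36-negative libraries 1, 2, 4, 7 and 8. The spread within each group exceeded the difference between them (log2 fold change -0.05, interval -0.74 to 0.65, edgeR adjusted p = 0.952). The lowest value belonged to CD36-positive library 1, and without it the log2 fold change was 0.17.

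Cd33 (chromosome 7 from 43524216 to 43544428, minus strand) encodes the receptor after which the CD33-related Siglecs are named. It was at 197, 205, 213, 270 and 209 CPM in CD36-positive libraries 1, 2, 3, 4 and 7, against 223, 135, 144, 167 and 226 CPM in CD36-negative libraries 1, 2, 4, 7 and 8. The groups overlapped (log2 fold change 0.29, interval -0.10 to 0.68, edgeR adjusted p = 0.403), with CD36-positive library 4 the highest of the 10.

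Cd22 (chromosome 7 from 30865402 to 30880342, minus strand) encodes an ITIM Siglec best known from B cells and also found on aged mouse microglia. It was at 6.51, 10.7, 10.6, 13.1 and 18.9 CPM in CD36-positive libraries 1, 2, 3, 4 and 7, against 15.9, 7.45, 19.1, 16.1 and 31.3 CPM in CD36-negative libraries 1, 2, 4, 7 and 8. The groups overlapped (log2 fold change -0.58, interval -1.39 to 0.23, edgeR adjusted p = 0.414), and 35 to 375 counts lay behind each value. Markers of B cells other than Cd22 were scarce in both groups: their summed level was 43.9 to 80.6 CPM over CD36-positive libraries, against 37.1 to 73.5 CPM over CD36-negative ones. Of 6 tested B cell markers 1 fell (median log2 fold change 0.16).

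Levels of different genes were compared as CPM per kilobase of the longest annotated transcript. Sirpa was the highest of the 9 in both groups, at 187 ± 24.1 CPM per kilobase in CD36-positive and 198 ± 39.4 in CD36-negative libraries (SD, n = 5 each). In CD36-positive cells Lair1 (116 ± 9.32) and Lilrb4a (111 ± 25.0) followed with overlapping ranges, then Siglece (46.2 ± 22.0) and Cd33 (38.2 ± 5.11), which also overlapped. Pirb (26.0 ± 7.09), Siglec1 (13.3 ± 6.37), Cd200r1 (3.42 ± 2.01) and Cd22 (3.01 ± 1.14) came last, each overlapping the next in the order. In CD36-negative cells Lair1 (58.5 ± 18.9), Pirb (54.3 ± 11.4), Lilrb4a (53.6 ± 7.47), Siglece (47.7 ± 16.4) and Cd33 (31.2 ± 7.50) formed a run of overlapping neighbours. Below a gap in that group stood Cd200r1 (9.81 ± 2.67), Siglec1 (5.87 ± 2.13) and Cd22 (4.52 ± 2.17), again with overlapping neighbours. Pirb stood sixth in CD36-positive and level with Lair1 and Lilrb4a in CD36-negative cells.

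**Figure D4:**
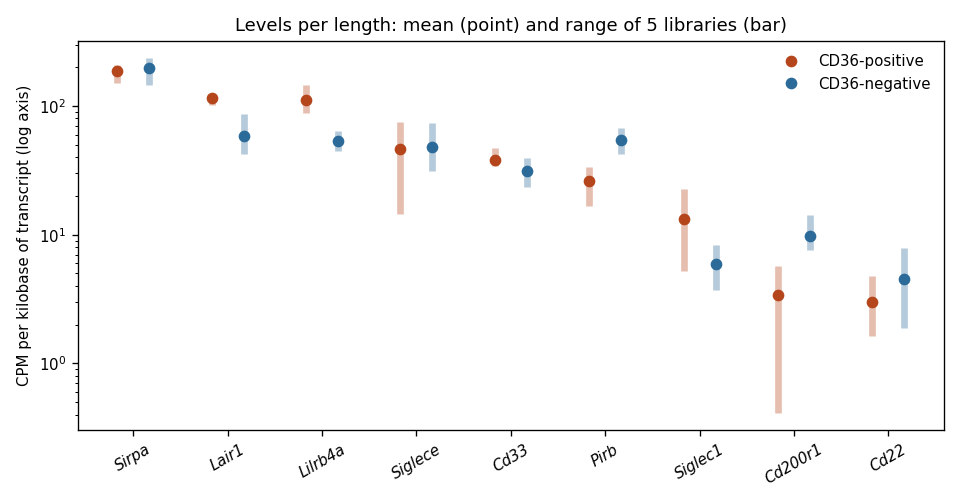
Level of each receptor gene as CPM per kilobase of transcript (vertical log axis), with genes in order of their CD36-positive mean along the horizontal axis. Points are means and bars the range of 5 libraries, CD36-positive left of CD36-negative; Sirpa is highest in both groups, and Pirb is the gene among the 6 highest whose CD36-negative bar lies wholly above its CD36-positive bar.

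Other genes of the pathway were taken from lists by known role. Of 31 tested receptors related to the members, 4 rose and 7 fell (median log2 fold change -0.19, beside 0.02 for all genes tested). Lilra5, Lilra6, Gm14548 and Gm15448 were not in this list. Btla, an inhibitory receptor of lymphocytes and dendritic cells, was at 0 to 2.06 CPM over CD36-positive libraries, against 41.7 to 123 CPM over CD36-negative ones (log2 fold change -5.91, SE 0.51, edgeR adjusted p = 1.45e-06). Siglecf, the eosinophil Siglec, was at 6.88 to 19.1 CPM over CD36-positive libraries, against 45.0 to 70.2 CPM over CD36-negative ones (-2.19, SE 0.28, edgeR adjusted p = 7.04e-05). Siglecg, a Siglec of B cells and dendritic cells, fell by 4.57 on the log2 scale, and Siglech, a marker of microglia, did not pass (268 ± 96.8 CPM in CD36-positive libraries, against 222 ± 78.7 CPM in CD36-negative ones, SD, n = 5 each; log2 fold change 0.27, interval -0.29 to 0.83). Rises were seen in the ITIM lectin gene Clec4a2 (1.25, SE 0.22) and the SLAM-family gene Cd84 (0.85, SE 0.19), with Clec12a and Milr1 smaller at 0.65 and 0.64. The remaining falls were those of Pira2, Sirpb1a, Cd300a (-0.92), and Pecam1 (-1.88). Btla and Siglecf had the 2 smallest p-values of the list, and the others were also chosen after their values were seen.

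Among 17 tested ligand genes 1 rose and 3 fell (median log2 fold change 0.42). Cd47, the ligand of SIRPα, was at 164, 258, 211, 312 and 350 CPM in CD36-positive libraries 1, 2, 3, 4 and 7, against 500, 515, 637, 535 and 423 CPM in CD36-negative libraries 1, 2, 4, 7 and 8. Every CD36-positive library was lower (log2 fold change -1.01, SE 0.20, edgeR adjusted p = 0.00480). Cd200 was at 0 to 2.42 CPM over CD36-positive libraries, against 3.59 to 10.4 CPM over CD36-negative ones (-3.66, SE 0.91, edgeR adjusted p = 0.0196). Spn, which encodes the sialylated protein CD43, fell by 1.56, and Rtn4, which encodes Nogo, rose by 0.87 (edgeR adjusted p = 0.0486), both chosen after their values were seen. The call for Rtn4 was lost by limma voom, where 0 ligand genes rose, beside 5 at an unadjusted p under 0.05 by edgeR and 1 at an adjusted p under 0.05 by DESeq2.

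Of 18 tested ITIM effectors, which act downstream of the receptors, 1 rose and 0 fell by edgeR (median -0.16), where 2.61% of all genes tested rose and 4.74% fell. The same list had 3 lower at an unadjusted p under 0.05, 2 lower by DESeq2 and 1 lower by limma voom. The gene that rose was Rasa1, a GTPase-activating protein for Ras that binds Dok proteins (88.6 ± 33.8 CPM in CD36-positive libraries, against 39.3 ± 11.96 CPM in CD36-negative ones, SD, n = 5 each; log2 fold change 1.17, SE 0.27, edgeR adjusted p = 0.0126). Ptpn6, which encodes SHP-1, was at -0.32 on the log2 scale (interval -0.77 to 0.13). Inpp5d, which encodes SHIP1, was at 0.08 (interval -0.28 to 0.43). Dok1 and Dok2 were at -0.37 and -0.38. Ptpn6, Inpp5d, Dok1 and Dok2 were chosen after their values were seen. Of 26 tested kinases and activating adaptors 1 rose (Blnk, 0.86) and 3 fell (median -0.10). Fgr, a Src-family kinase of granulocytes and monocytes, was at 21.0 to 48.6 CPM over CD36-positive libraries, against 88.6 to 185 CPM over CD36-negative ones (-2.18, SE 0.26, edgeR adjusted p = 3.72e-05). Fyn fell by 2.06 (SE 0.37, edgeR adjusted p = 0.00167) and Lck, a kinase of T cells, by 3.58. Lyn was at 0.09 (interval -0.28 to 0.45). The adaptor genes Tyrobp, for DAP12, and Fcer1g were at 0.16 and 0.31, and neither passed. Lyn, Lck, Blnk, Tyrobp and Fcer1g were chosen after their values were seen.

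Sialic acid genes, which make and remove the ligands of Siglecs, had 1 rise and 2 falls among 22 tested (median -0.11). Cmah, the enzyme gene that converts one sialic acid form into another and thereby sets Siglec binding, was at 12.4 to 43.2 CPM over CD36-positive libraries, against 4.73 to 9.30 CPM over CD36-negative ones (1.84, SE 0.38, edgeR adjusted p = 0.00534). St8sia6, a sialyltransferase gene, fell by 1.36 (SE 0.38, edgeR adjusted p = 0.0351), and St3gal5, chosen after its values were seen, by 1.11.

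**Figure D5:**
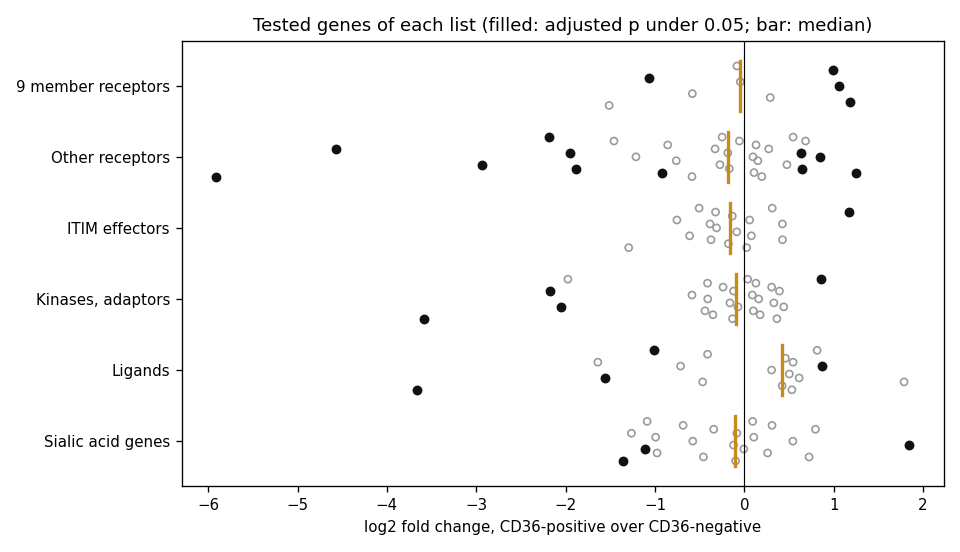
Log2 fold change (CD36-positive over CD36-negative, horizontal axis) of the tested genes in each list, with the 9 receptors named above on top. Filled points had an adjusted p under 0.05, open points did not, and vertical bars are medians; of 31 other receptors 7 filled points lie below and 4 above 0.

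Genes whose pattern over the 10 libraries was most like that of each changed receptor were found by the root mean square difference of log2 CPM, each gene centred on its own mean. The measure spans both groups, so a like difference between the groups counts toward likeness. For Lilrb4a they were Cd84 (0.15), Itgav (0.20) and Dcp2 (0.20). For Pirb the first were Nr1h2 (0.16) and Nfkb2 (0.22), and the next has a symbol that a spreadsheet had turned into a date. For Lair1 they were Tspan32 (0.16), Rnase4 (0.17) and Scoc (0.19). Siglec1 had no gene as near, the closest being Ifi27l2a, an interferon-induced gene, at 0.40, followed by Trim47 (0.41) and Slc12a7 (0.42). Trim47 and Slc12a7 did not pass between the groups (edgeR adjusted p = 0.148 and 0.220).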

How the data were processed

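Counts for 10 libraries of sorted mouse retinal cells were used. The authors deposited 1 table with a column of counts per library, per the file headers; 91.9% of values are whole and the rest are decimals, so the deposited values were taken to be expected counts, not normalized. The submitters' processing notes name the mm10 build and the tools StringTie 1.3.1, HISAT2 2.1.0, Bowtie2 2.2.8 and fastp 0.18.0 without their roles; the sources used here name no counting program. Of 22008 lines, 8 malformed and 131 repeated ones were dropped; 21869 genes were left.

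Rounded counts were filtered (filterByExpr, minimum count 10), TMM-scaled and tested with edgeR's quasi-likelihood test (version 4.0.16, R 4.3.3). The model held the sort group alone, and p-values were adjusted over 11596 genes by Benjamini-Hochberg. Standard errors (SE) are the absolute log2 fold change divided by the square root of that test's F statistic. Intervals are 95%, from these standard errors and the t distribution. Named genes were the 9 receptors, the 2 of each pathway list with the smallest p past the threshold, and the 3 most like each changed receptor (average log2 CPM of at least 3); all but the receptors were thus picked by their values, and genes named beyond this rule are marked in the text or were given for their position or shared sequence. The members and lists were chosen with earlier results of these data known. Transcript lengths, gene positions and shared 50-base words came from GENCODE (GRCm38), promoters from RefSeq. Alternatives were DESeq2 1.42.0 (size factors, Wald test), limma 3.58.1 voom with quality weights, other filters (none; 10 CPM in 5 libraries), replicate numbers as a block, libraries left out, detected genes or Y-linked level as a covariate, an adjusted p of 0.01 and genes of shared sequence counted together. No pair of replicates agreed within counting error: chi-square divided by its degrees of freedom was 23.3 to 116.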

Additional observations from a re-analysis of the deposited data

Results flagged for a closer look

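Cd33 in CD36-positive library 4 was at 270 CPM, against 197 to 213 CPM in the other 4 CD36-positive libraries, a gap of 0.778 of the group's range. It was the sole value set apart from its group among 20 groups of 5 libraries (9 receptor genes and Cd36 in each group), and chance sets apart about 1 in 20.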

How the results depend on the processing

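Lilrb4a, Lair1 and Pirb kept their direction and stayed past the threshold in every alternative run, with log2 fold changes of 0.80 to 1.12, 0.87 to 1.19 and -1.32 to -0.87. Siglec1 kept its direction (0.90 to 1.55) but did not pass in 9 of 21 alternatives: 7 of the 10 that left out 1 library, a covariate of genes detected (1.08) and an adjusted p of 0.01. Receptor genes called lower numbered 2 rather than 1, Cd200r1 being added, with no filter, the stricter filter, the title replicate block, the DESeq2 Wald test, limma voom, the Y-linked covariate, or without CD36-positive libraries 1 and 3; they numbered 1 to 2 with each library left out, and those called higher 2 to 3. Sirpa was at 0.026 with the description replicate block and 0.033 without CD36-positive libraries 1 and 3. Siglece was at 0.29 without those libraries, 0.13 with limma voom, and -0.29 to 0.17 with each library left out; the cause was not tested. Over all genes, 184 rose with the description replicate block, 188 without CD36-positive libraries 1 and 3, 615 with the Wald test (862 fell) and 90 at an adjusted p of 0.01 (330 fell), against 303 and 550 in the main test. With each library left out 132 to 380 rose and 422 to 583 fell; 196 rose without CD36-positive library 3, and 132, 182 and 197 without CD36-negative libraries 4, 7 and 8. The ratio of the highest to the lowest receptor level in CD36-positive libraries was 62.0 per kilobase and 83.8 without division by length. Deviations of same-numbered libraries correlated at 0.03 to 0.13 over 4 pairs (description) and -0.02 to 0.13 over 5 pairs (title). Differently numbered libraries correlated at -0.20 to 0.12 by either numbering. By description number, Y-linked RNA in libraries 1 and 2 was 207 to 307 CPM (CD36-positive) and 184 to 206 CPM (CD36-negative). In libraries 4 and 7 it was 18.4 to 19.7 and 48.3 to 57.6 CPM. The labels name no pairs, and these values cannot decide whether same-numbered libraries were paired.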
